A study of Rattus norvegicus with 12 samples.

Results

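Carboxylesterases, paraoxonases, epoxide hydrolases, flavin-containing monooxygenases, sulfotransferases and UDP-glycosyltransferases were followed in microdissected rat bronchi. The 38 genes are all those whose symbol in the array annotation starts with Ces, Pon, Ephx, Fmo, Sult or Ugt and a digit, out of 14217 annotated genes on the array. They comprised 5 Ces, 3 Pon, 3 Ephx, 4 Fmo, 14 Sult and 9 Ugt genes. For the 8 genes with several probe sets, the probe set of highest mean log2 signal over all arrays was read.

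The study compared 3 groups of bronchial specimens. Fibrotic bronchi (n = 3, replicates 3, 7 and 9) and non-fibrotic bronchi (n = 3, replicates 4, 8 and 10) came from male Wistar Han rats that had inhaled 200 ppm of 2,3-pentanedione (PD), a butter-flavouring diketone, for 6 h/day on 12 days over 2 weeks. Air-exposed control bronchi (n = 6, replicates 1 to 6) came from male Wistar Han rats that had inhaled filtered air on the same schedule, and all rats were 6 to 7 weeks old on arrival. Bronchi were cut out by laser capture microdissection (LCM), and amplified RNA was hybridized to 1 array per specimen. The fibrotic specimens held intraluminal polyps or plaques with the wall beneath them. Non-fibrotic specimens were other bronchial branches of some of the same PD-exposed rats. The labels do not tie a specimen to a rat, and the p-values below do not allow for shared rats.

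These enzymes carry much of the chemical defence of the airway lining. Carboxylesterases and paraoxonases cleave esters and lactones, epoxide hydrolases open reactive epoxides, and flavin-containing monooxygenases oxidize soft nucleophiles such as amines and sulfides. Sulfotransferases and UDP-glycosyltransferases then attach a sulfate or a sugar, which makes a compound easier to export. In the lung such enzymes are best known from the non-ciliated secretory (club) cells of the airway.

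The 4 promoters below are shown because Pon1, Ces1d and Ces1e had the largest fitted falls in fibrotic bronchi and lie in runs of neighbouring genes of 1 family, to which Pon3 also belongs. That order holds for the brightest probe set of each gene with dim signals left as they were, and not for every way of reading them. On the RefSeq assembly GRCr8, Pon1, Pon3 and Pon2 follow each other on chromosome 4, and Ces1e, Ces1d and Ces1c follow each other on chromosome 19. Each run holds 250 bases before to 50 after the annotated start, written 5′ to 3′ on the gene's strand, at chr4:34287811-34288110 (minus) for Pon1, chr4:34350195-34350494 (minus) for Pon3, chr19:30046244-30046543 (plus) for Ces1d and chr19:30005923-30006222 (plus) for Ces1e. Capitals mark matches to the motifs searched.
Pon1: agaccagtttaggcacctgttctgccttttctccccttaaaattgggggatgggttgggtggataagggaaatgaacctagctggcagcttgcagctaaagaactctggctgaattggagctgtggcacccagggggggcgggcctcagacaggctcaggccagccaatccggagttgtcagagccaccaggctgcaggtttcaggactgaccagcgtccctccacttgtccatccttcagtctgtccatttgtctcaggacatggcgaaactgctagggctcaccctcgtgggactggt
Pon3: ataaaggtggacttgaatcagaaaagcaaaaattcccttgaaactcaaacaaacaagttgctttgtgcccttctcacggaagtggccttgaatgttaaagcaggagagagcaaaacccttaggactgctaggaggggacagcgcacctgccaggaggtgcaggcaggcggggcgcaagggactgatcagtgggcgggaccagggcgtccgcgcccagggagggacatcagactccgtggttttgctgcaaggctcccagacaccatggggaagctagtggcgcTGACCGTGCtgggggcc
Ces1d: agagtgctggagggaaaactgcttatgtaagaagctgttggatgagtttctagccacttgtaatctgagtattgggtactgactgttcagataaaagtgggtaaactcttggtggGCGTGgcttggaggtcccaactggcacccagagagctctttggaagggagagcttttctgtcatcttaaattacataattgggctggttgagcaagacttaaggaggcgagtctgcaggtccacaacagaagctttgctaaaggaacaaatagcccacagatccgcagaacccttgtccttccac
Ces1e: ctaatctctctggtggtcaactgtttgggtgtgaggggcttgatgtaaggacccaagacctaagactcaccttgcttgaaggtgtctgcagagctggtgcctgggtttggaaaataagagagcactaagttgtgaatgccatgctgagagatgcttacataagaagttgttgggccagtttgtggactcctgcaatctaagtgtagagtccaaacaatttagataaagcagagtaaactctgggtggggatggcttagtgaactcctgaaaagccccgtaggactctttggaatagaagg

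Motifs were searched on both strands. The TATA box was searched as TATAAA and the forkhead core as TGTTTAC. The antioxidant response element core was searched as TGACNNNGC, where N is any base. The xenobiotic response element core was GCGTG, and the nuclear receptor half-site was AGGTCA. Pon3 held an antioxidant response element core that starts at position 34, counted from 1 at the annotated start, Ces1d held a xenobiotic response element core that starts at position -135 from the start, and the Pon1 and Ces1e windows held none of the 5 motifs. Of the 34 promoters found for the 38 genes 3 (8.82%) held an antioxidant and 7 (20.6%) a xenobiotic response element core, against 12.1% and 29.7% of 33469 rat promoters of the same length. A TATA box was in 20.6% of the 34 against 14.2% of all, a forkhead core in 11.8% against 3.78%, and a nuclear receptor half-site in 11.8% against 16.2%. The Pon windows held 5 and 11 CpG pairs (Pon1 and Pon3) and the Ces1 windows 3 and 1 (Ces1d and Ces1e). A match describes the letters and is not a site of binding.

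Each value below is the log2 MAS5 signal of 1 probe set on 1 array. Signals of different probe sets cannot be set against each other, and only groups are compared within a gene. Bacterial transcripts that had not been added to the samples gave signals up to a log2 of 6.52, and this level is used as the limit under which a signal cannot be told from an absent transcript. Where every array of the dimmer group was under the limit, the fold is a lower bound measured from 6.52, and where only some were, a called difference is also given with those arrays raised to 6.52 (floored). Of the 38 genes, 3 (Pon2, Pon3 and Ephx1) lay above it on all 12 arrays, 16 on some arrays and 19 on none. Those on none were 10 of 14 Sult genes, 6 of 9 Ugt genes and 3 of 5 Ces genes (Ces1c, Ces2c and Ces5a). A gene was called changed at an adjusted p under 0.01 in limma over all probe sets (Benjamini-Hochberg).

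The marker genes of the captured tissue differed between the groups, which bears on all that follows. Among 18 club cell markers 14 were lower and none higher in fibrotic than in control bronchi (limma, median log2 difference -4.04, and at an unadjusted p under 0.05 there were 16 lower and 0 higher). This list holds Sec14l3, Cyp2f4 and Cyp4b1, which the study behind these arrays had listed among its major decreases in fibrotic bronchi. It holds Cyp2a3 too, which that study had listed among the decreases in non-fibrotic bronchi. It also holds other metabolic enzymes such as Aldh1a1, Gsta3, Gstm1 and Por, so it is no independent measure of the number of club cells. All 17 ciliated cell markers were lower (median -4.39), and of 18 pan-epithelial genes 9 were lower and 1 higher (median -1.40). Macrophage markers (7 of 14) and fibroblast and matrix markers (8 of 14) were higher, with medians of 2.72 and 1.82. The summed club marker signal spanned a log2 of 13.52 to 14.73 in fibrotic, 16.15 to 16.80 in non-fibrotic and 16.47 to 17.81 in control bronchi. Some of these markers split the controls, such as Bpifa1, at 13.84 to 14.86 in controls 1, 2 and 6 and 4.00 to 4.65 in controls 3 to 5. Others did not, such as Sec14l3, at 12.89 to 13.35 in all 6 controls. The pan-epithelial sum spanned 15.01 to 15.56 in fibrotic, 15.62 to 16.16 in non-fibrotic and 15.72 to 16.13 in control bronchi. In non-fibrotic bronchi 3 of 18 club and 1 of 17 ciliated markers were lower than in controls, and no pan-epithelial gene was called (3 higher and 4 lower at an unadjusted p under 0.05). At that unadjusted p 8 club markers were lower and 2 higher, and 7 ciliated markers were lower and 0 higher. The alveolar type II sum spanned 16.35 to 16.65 in non-fibrotic and 15.54 to 16.02 in control bronchi. No marker of that list was called in this contrast (4 higher and 0 lower unadjusted). Of 14 hepatocyte markers, which stand for the organ richest in these enzymes, 8 lay under the level of absent transcripts on every fibrotic array, 9 on every non-fibrotic array and 11 on every control array. In such bulk specimens fewer cells of a type and less RNA per cell cannot be told apart, and the part of cell composition in the enzyme results was not tested.

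In fibrotic bronchi 11 of the 38 enzyme genes were lower than in control bronchi and none was higher (28.9% lower, against 8.38% of all 14217 genes called lower, 4.13% called higher and 12.5% called either way). At an unadjusted p under 0.05 there were 14 lower and 3 higher. A sign of RNA quality moved with the groups, since the log2 difference between 3′ and 5′ GAPDH control probe sets was 1.59 to 2.11 in fibrotic, 1.95 to 2.35 in non-fibrotic and 0.704 to 2.03 (median 0.831) in control bronchi, and its part in the enzyme results was not tested. The 11 comprised all 3 paraoxonases, Ces1d and Ces1e, Ephx1 and Ephx2, Fmo2 and Fmo5, and 1 gene of each conjugating family, Sult1a1 and Ugt8. The median log2 difference over the 38 genes was -0.57, and that over all genes was 0.10. Non-fibrotic bronchi differed from controls in 2 of the 38, Pon1 and Ces1e, both lower (5.26%, against 0.436% of all genes called lower, 0.183% called higher and 0.619% either way), with 0 higher by limma and 8 higher and 4 lower at an unadjusted p under 0.05. Both of these calls are fragile, since the one for Ces1e was lost in 12 of 26 alternative analyses (adjusted p up to 0.379), and the one for Pon1 in 10 of 28 (adjusted p up to 0.404), with 1 more reversed. Between the 2 kinds of exposed bronchi 7 of the 38 were lower in the fibrotic ones (18.4%, against 3.83% of all genes called lower, 1.47% called higher and 5.3% either way) and none was higher, with 13 lower and 0 higher at an unadjusted p under 0.05. The comparisons of fibrotic and of non-fibrotic bronchi with air share the 6 control arrays, so they are given side by side and not as separate evidence. Pon1, Fmo2 and Ces1d had been singled out by the study behind these arrays and are therefore no independent support for the direction.

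**Figure D1:**
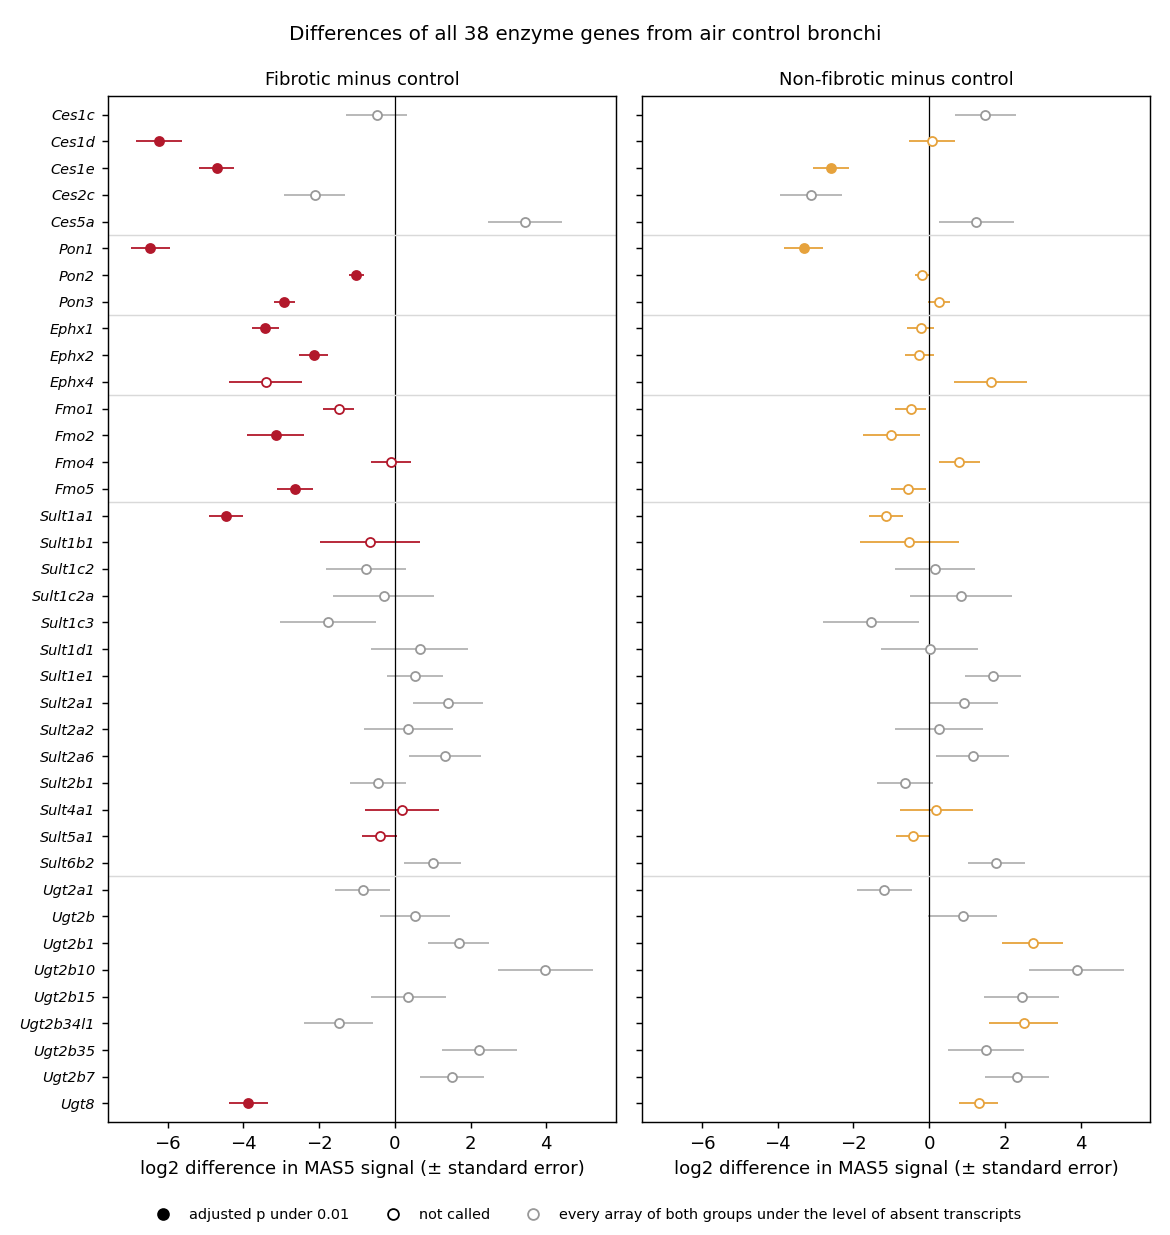
Differences of all 38 enzyme genes from air control bronchi, as log2 differences in MAS5 signal with their standard errors (fibrotic n = 3 on the left, non-fibrotic n = 3 on the right, control n = 6). Filled points passed an adjusted p of 0.01 (11 on the left, 2 on the right, all below 0), and grey points are genes whose arrays in both groups lay under the level of absent transcripts.

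The paraoxonases were the only family in which every gene was called lower in fibrotic than in control bronchi. All 3 Ephx and all 4 Fmo genes also had negative fitted differences, with 2 called in each family. That of Fmo4 was -0.10 with an SE of 0.53, and it was 0.12 when floored, so its direction is open. Pon1, a lactonase and esterase best known as a liver product carried on high-density lipoprotein, had log2 signals of 4.65, 4.10 and 3.23 in fibrotic replicates 3, 7 and 9, of 6.05, 7.80 and 7.57 in non-fibrotic replicates 4, 8 and 10, and of 9.41 to 11.27 (median 10.65) in the 6 controls. The 3 groups did not overlap, and all fibrotic arrays lay under the level of absent transcripts. Non-fibrotic replicate 4 (6.05) lay under it too, so this array cannot be told from the fibrotic ones. Pon1 was therefore at least 15.3-fold lower in fibrotic than in control bronchi (fitted log2 difference -6.46, SE 0.51, adjusted p = 5.3e-07) and at least 1.54-fold lower than in non-fibrotic bronchi (fitted -3.14, SE 0.59, adjusted p = 0.00339). The call against non-fibrotic bronchi was lost in 13 of 28 alternative analyses (adjusted p between 9.8e-04 and 0.405). In non-fibrotic bronchi it was lower than in controls by a log2 of -3.32 (SE 0.51, adjusted p = 0.00422, -3.16 floored). A second Pon1 probe set of lower signal did not share this pattern, with 5.48, 4.74 and 6.54 in fibrotic bronchi, 5.75, 7.06 and 7.62 in non-fibrotic bronchi and 3.21 to 6.04 (median 4.91) in controls. All control arrays of that probe set lay under the level of absent transcripts, so it holds no measured level from which a fall could be read. Which part of the transcript each probe set covers is not given in the sources used here.

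Pon3, a lactonase of the same gene cluster, had signals of 9.83, 11.15 and 11.12 in fibrotic bronchi, of 13.26, 14.31 and 14.08 in non-fibrotic bronchi and of 13.31 to 14.07 (median 13.60) in controls. Non-fibrotic and control arrays overlapped, and every fibrotic array lay well above the level of absent transcripts and below all others. It was 7.54-fold lower in fibrotic than in control bronchi (-2.92, SE 0.29, adjusted p = 4.1e-06) and 9.07-fold lower than in non-fibrotic bronchi (-3.18, SE 0.33, adjusted p = 2.9e-05), whereas non-fibrotic bronchi differed from controls by 0.27 (SE 0.29, adjusted p = 0.578). Pon2, an intracellular member found in most tissues, had the smallest of the 11 differences. Its signals were 11.41, 11.29 and 11.75 in fibrotic bronchi, 12.10, 12.62 and 12.22 in non-fibrotic bronchi and 12.27 to 13.03 (median 12.41) in controls. Fibrotic arrays were again below all others, and the change from controls was 2.02-fold (-1.02, SE 0.20, adjusted p = 0.00196), with the difference from non-fibrotic bronchi not called (-0.83, adjusted p = 0.0312). The call against controls was lost in 5 of 26 alternative analyses, which were median centring, no intensity trend, controls 1 and 2 only, and fibrotic replicate 3 or 7 left out (adjusted p up to 0.023). The 3 neighbouring paraoxonase genes thus differed in how non-fibrotic bronchi stood to controls, by -3.32 for Pon1, 0.27 for Pon3 and -0.19 for Pon2 (SE 0.20, adjusted p = 0.573), differences between genes that were not tested.

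Among carboxylesterases the changes lay in a neighbouring gene pair. Ces1d, whose mouse ortholog is known as a triacylglycerol hydrolase, had signals of 5.02, 9.47 and 6.87 in fibrotic bronchi, of 12.99, 14.03 and 13.25 in non-fibrotic bronchi and of 13.04 to 13.64 (median 13.34) in controls. Its fibrotic arrays were more spread (SD 2.23) than those of any other called gene and still lay below every other array. Ces1d was lower than in controls by a log2 of -6.23 (SE 0.60, adjusted p = 3.5e-06, -5.73 floored) and lower than in non-fibrotic bronchi by -6.30 (SE 0.69, adjusted p = 4.8e-05, -5.80 floored). Non-fibrotic bronchi and controls overlapped (0.07, SE 0.60, adjusted p = 0.953). Ces1e, a second carboxylesterase of the same cluster, gave 3.68, 3.72 and 5.40 in fibrotic bronchi, 6.49, 6.72 and 5.93 in non-fibrotic bronchi and 8.31 to 9.46 (median 9.04) in controls. No groups overlapped, and all fibrotic and 2 of 3 non-fibrotic arrays lay under the level of absent transcripts. Against controls it was at least 5.49-fold lower in fibrotic bronchi (fitted -4.71, SE 0.47, adjusted p = 4.8e-06), and in non-fibrotic bronchi it was lower by -2.59 (SE 0.47, adjusted p = 0.00973, -2.39 floored). Against controls 1 and 2 alone the difference of fibrotic bronchi was not called (-4.21, adjusted p = 0.0163). Ces1c, next to Ces1d on the chromosome, and Ces2c and Ces5a stayed under the level of absent transcripts on all 12 arrays, where a difference such as 3.44 for Ces5a (adjusted p = 0.024) has no measured level on either side.

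**Figure D2:**
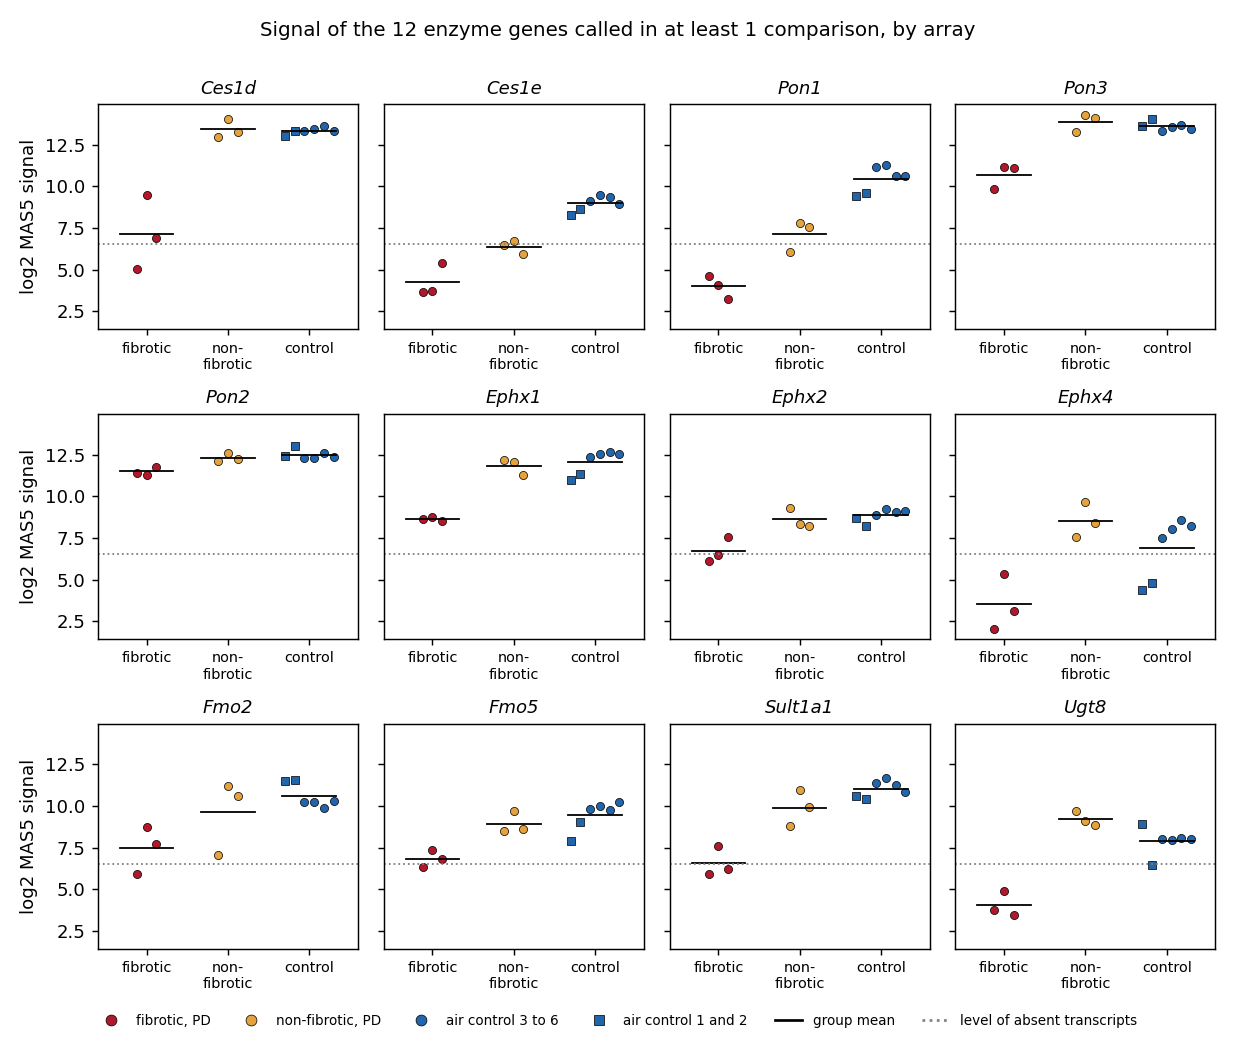
Log2 MAS5 signals of the 12 enzyme genes called in at least 1 comparison, 1 point per array, for fibrotic (n = 3), non-fibrotic (n = 3) and air control bronchi (n = 6, squares for controls 1 and 2). Bars are group means and the dotted line is the level of absent transcripts, a log2 of 6.52. Fibrotic arrays of Ces1e, Pon1, Ephx4 and Ugt8 all lay under it.

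Of the 3 epoxide hydrolases 2, Ephx1 and Ephx2, were lower in fibrotic than in control bronchi. Ephx1, the microsomal epoxide hydrolase that detoxifies epoxides made by cytochromes P450, had signals of 8.65, 8.76 and 8.52 in fibrotic bronchi, of 12.18, 12.03 and 11.29 in non-fibrotic bronchi and of 10.98 to 12.62 (median 12.45) in controls. The fibrotic arrays were close to each other and far below the rest, and non-fibrotic and control arrays overlapped. It was 10.7-fold lower than in controls (-3.42, SE 0.35, adjusted p = 6.1e-06) and 9.13-fold lower than in non-fibrotic bronchi (-3.19, SE 0.40, adjusted p = 1.5e-04). Controls 1 and 2 were lower than controls 3 to 6 (means of 11.14 and 12.52). Ephx2, the soluble enzyme that hydrolyses fatty acid epoxides, gave 6.14, 6.47 and 7.57 in fibrotic bronchi, 9.27, 8.35 and 8.19 in non-fibrotic bronchi and 8.22 to 9.23 (median 8.96) in controls. It was lower than in controls without overlap (-2.14, SE 0.38, adjusted p = 0.00107, 3.99-fold after flooring), and its difference from non-fibrotic bronchi was not called (-1.88, adjusted p = 0.0143). Against controls 1 and 2 alone the adjusted p for Ephx2 was 0.167 (-1.73).

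Ephx4, a relative whose substrates are little known, was called between the 2 kinds of exposed bronchi only. Its signals were 2.06, 5.35 and 3.10 in fibrotic bronchi, 7.55, 9.67 and 8.40 in non-fibrotic bronchi, 4.40 and 4.81 in controls 1 and 2, and 7.51, 8.00, 8.58 and 8.21 in controls 3 to 6. All fibrotic arrays were under the level of absent transcripts, all non-fibrotic arrays above it, and the controls fell on both sides by label form. It was at least 4.07-fold lower in fibrotic than in non-fibrotic bronchi (fitted -5.04, SE 1.12, adjusted p = 0.00988), and a second Ephx4 probe set, also under the level on every fibrotic array, was at least 4.22-fold lower (fitted -5.06, SE 1.05, adjusted p = 0.00648). The call of the first was lost in 15 of 27 alternative analyses (adjusted p between 8.8e-04 and 0.0522). Against all 6 controls it was not called (-3.42, SE 0.97, adjusted p = 0.0225), and against controls 3 to 6 alone it was (-4.57, adjusted p = 0.000664).

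The flavin-containing monooxygenases were read from 4 genes, of which 2 were called. Fmo2 encodes the main form of mammalian lung, although several laboratory rat strains are known to make a truncated protein from it. Its brightest probe set gave 5.94, 8.77 and 7.70 in fibrotic bronchi, 7.06, 11.20 and 10.62 in non-fibrotic bronchi and 9.90 to 11.55 (median 10.27) in controls. Fibrotic and control arrays did not overlap, non-fibrotic arrays overlapped with both, and the fall from controls was -3.15 (SE 0.75, adjusted p = 0.00837, -2.96 floored). That call was lost in 15 of 29 alternative analyses (adjusted p between 4.6e-06 and 0.0705). The other 2 Fmo2 probe sets, whose control arrays were closer together, gave larger falls, also after flooring or as a bound. The second had 5.61, 5.00 and 7.18 in fibrotic bronchi, 6.96, 9.66 and 9.80 in non-fibrotic bronchi and 10.96 to 11.49 (median 11.37) in controls, a difference of -5.40 from controls (SE 0.54, adjusted p = 4.9e-06, -4.59 floored). The third had 3.73, 6.24 and 6.12 in fibrotic bronchi, 6.96, 9.11 and 10.84 in non-fibrotic bronchi and 11.18 to 11.95 (median 11.46) in controls, and was at least 31.4-fold lower in fibrotic bronchi (fitted -6.13, SE 0.65, adjusted p = 8.3e-06). On both of these every non-fibrotic array lay below every control array, by -2.52 each, which was not called (adjusted p of 0.0196 and 0.0358), and fibrotic was called lower than non-fibrotic tissue on both. The second gave -2.88 for this contrast (adjusted p = 0.00851, -2.07 floored), and the third was at least 5.47-fold lower (fitted -3.60, adjusted p = 0.00656).

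**Figure D3:**
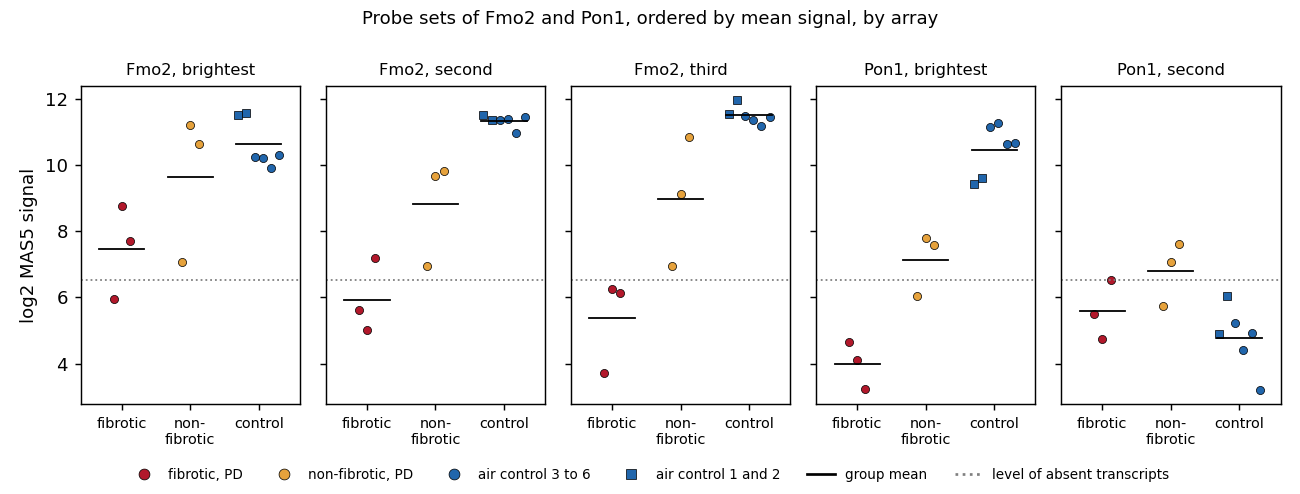
Log2 MAS5 signals of the 3 Fmo2 and 2 Pon1 probe sets, 1 point per array, for fibrotic (n = 3), non-fibrotic (n = 3) and air control bronchi (n = 6, squares for controls 1 and 2), with group means as bars and the level of absent transcripts (6.52) dotted. The 3 Fmo2 probe sets fall in fibrotic bronchi by -3.15, -5.40 and -6.13, while the second Pon1 probe set lies under the dotted line on all control arrays.

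Fmo5, which in humans oxidizes ketones to esters, had signals of 6.36, 7.36 and 6.79 in fibrotic bronchi, of 8.49, 9.68 and 8.62 in non-fibrotic bronchi and of 7.91 to 10.25 (median 9.82) in controls. Fibrotic arrays were below all others, with a difference of -2.64 from controls (SE 0.47, adjusted p = 9.6e-04, -2.59 floored) and of -2.09 from non-fibrotic bronchi, which was not called (adjusted p = 0.0234). Against controls 1 and 2 alone the difference was -1.64 (adjusted p = 0.183). Fmo4 and Fmo1, which precede Fmo2 on chromosome 13 of GRCr8, were not called. Fmo1, a major renal and hepatic form in rodents, gave 6.18, 6.79 and 7.39 in fibrotic bronchi, 7.25, 8.17 and 7.92 in non-fibrotic bronchi and 7.32 to 8.82 (median 8.26) in controls (-1.48 from controls, adjusted p = 0.0205, -1.37 floored). Fmo4 gave 6.09, 5.69 and 7.16 in fibrotic bronchi, 6.96, 6.40 and 8.30 in non-fibrotic bronchi and 5.53 to 6.73 (median 6.57) in controls (-0.10 in fibrotic bronchi, SE 0.53, adjusted p = 0.922). A second Fmo4 probe set lay under the level of absent transcripts on every exposed array and at 4.44 to 7.86 (median 7.10) in controls, and was not called either (-2.19 in fibrotic bronchi, SE 0.97, adjusted p = 0.135).

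Conjugating enzymes were mostly at or under that level, and each family held 1 called gene. Sult1a1, the phenol sulfotransferase, had signals of 5.89, 7.62 and 6.25 in fibrotic bronchi, of 8.78, 10.94 and 9.97 in non-fibrotic bronchi and of 10.43 to 11.71 (median 11.06) in controls. Fibrotic arrays were below all others, and non-fibrotic arrays overlapped with controls. It was lower than in controls by -4.45 (SE 0.45, adjusted p = 5.8e-06, -4.16 floored) and lower than in non-fibrotic bronchi by -3.31 (SE 0.52, adjusted p = 9.3e-04, -3.01 floored), and the difference of non-fibrotic bronchi from controls was -1.14 (SE 0.45, adjusted p = 0.126). Of the other 13 sulfotransferase genes 10 never rose above the level of absent transcripts. Sult5a1 did so in every group without a call, at 7.34, 6.07 and 6.86 in fibrotic bronchi, 7.30, 6.68 and 6.23 in non-fibrotic bronchi and 6.62 to 7.98 (median 7.09) in controls.

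Ugt8, which adds galactose to ceramide for the lipids of myelin and of some epithelia and is not a drug-conjugating enzyme, was the only UDP-glycosyltransferase called. It gave 3.76, 4.92 and 3.45 in fibrotic bronchi, 9.70, 9.08 and 8.89 in non-fibrotic bronchi and 6.48 to 8.94 (median 8.01) in controls. All fibrotic arrays were under the level of absent transcripts and below every other array. Ugt8 was at least 2.63-fold lower than in controls (fitted -3.87, SE 0.51, adjusted p = 7.0e-05) and at least 6.52-fold lower than in non-fibrotic bronchi (fitted -5.18, SE 0.59, adjusted p = 6.2e-05), with non-fibrotic bronchi at 1.31 from controls (SE 0.51, adjusted p = 0.121). A second, dim Ugt8 probe set lay under the level on all 12 arrays and gave no measured difference (0.55, adjusted p = 0.714).

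The other 8 Ugt genes belong to the 2A and 2B groups, which glucuronidate steroids, bile acids and drugs. In non-fibrotic bronchi 8 of the 9 Ugt differences from controls were positive and their median was 2.32, with 0 called by limma and 6 higher at an unadjusted p under 0.05. Of the 9 genes 6 lay under the level of absent transcripts on every array, so most of these differences are between signals that cannot be told from absent transcripts. Ugt2b34l1 passed the level on 1 array only, with 5.22, 8.27 and 5.37 in non-fibrotic bronchi against 3.10 to 4.37 in controls (2.49, SE 0.91, adjusted p = 0.102). The drug-conjugating Ugt1a genes share most of their exons, and 2 probe sets that the annotation gives to 8 Ugt1a genes at once were not assigned to a member. The first gave 10.97, 10.80 and 11.34 in fibrotic bronchi, 11.33, 11.81 and 11.16 in non-fibrotic bronchi and 11.03 to 11.86 (median 11.55) in controls. The second gave 10.39, 10.74 and 11.09 in fibrotic bronchi, 11.43, 11.15 and 11.24 in non-fibrotic bronchi and 10.92 to 11.76 (median 11.21) in controls. Both were clearly measured on all arrays and overlapped between fibrotic and control bronchi, at -0.48 (SE 0.22, adjusted p = 0.145) and -0.58 (SE 0.23, adjusted p = 0.0895).

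Among the fibrotic arrays replicate 7 was the highest for Ces1d, Fmo5, Sult1a1, Ephx1 and Pon3 and for the brightest Fmo2 probe set, and replicate 9 for Pon2 and Ephx2. For Pon3 replicates 7 and 9 were close (11.15 and 11.12). The other called genes, Ces1e, Pon1, Ephx4 and Ugt8, lay under the level of absent transcripts on every fibrotic array. Replicate 7 also had the highest signal for 11 of 11 alveolar type II markers, whose sum was a log2 of 14.73, 16.30 and 14.57 in replicates 3, 7 and 9, and for 9 of 18 club cell markers, whose sum was 13.52, 14.73 and 13.66. It was highest for 11 of 18 pan-epithelial genes as well. Of 17 ciliated cell markers, however, 12 were highest in replicate 9 and 4 in replicate 7. The part of these cells in the differences between arrays was not tested. In non-fibrotic bronchi replicate 4 was the lowest for Ces1d, all 3 paraoxonases, Fmo2, Fmo5, Sult1a1 and Ephx4, and the highest for Ephx1, Ephx2 and Ugt8. The same array was the highest of its group for every macrophage marker but Itgam (Cd68 10.02 against 6.54 and 6.36 in replicates 8 and 10). It was also the highest for every fibroblast and matrix marker but Col1a1, Col3a1 and Pdgfra (Fn1 11.52 against 7.56 and 9.27). The part of this in the enzyme values was not tested. Within-group correlations of all probe sets ran from 0.881 upwards in fibrotic, from 0.820 upwards in non-fibrotic and from 0.874 upwards in control bronchi. Controls 1 and 2 stood apart from the other arrays in the poly-A spike transcripts, at a mean log2 of 2.32 against 10.35 in controls 3 to 6 and 10.07 in the exposed arrays, whereas in the wording of their labels the exposed arrays match controls 1 and 2. Without controls 3 to 6, 5 of the 11 falls in fibrotic bronchi were called (Ces1d, Ephx1, Pon1, Pon3 and Sult1a1), and without controls 1 and 2, 12 were called, 10 of them among the 11.

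Genes that supply or reverse these reactions were counted next. Of 17 measured genes of cosubstrate supply and deconjugation 4 were lower and 1 higher in fibrotic than in control bronchi, against 12.5% of all genes called either way, with a median of -0.14. Papss1, which makes the sulfate donor of the sulfotransferases, fell by 2.11 on the log2 scale (adjusted p = 7.6e-05), and Me1, a source of NADPH, fell by 1.38 (adjusted p = 0.0023). Gusb, the lysosomal enzyme that removes glucuronic acid, rose by 1.40 (adjusted p = 6.8e-04). The other genes lower were Por (-1.42), the electron donor of cytochromes P450, and Idh1 (-0.95), both named after their values were seen. Of 17 genes of methyl, acetyl and amino acid conjugation 4 were lower and none higher, with a median of -0.06 and 2 higher and 4 lower at an unadjusted p under 0.05. Acsm1 (-4.60, adjusted p = 7.6e-06, -3.66 floored) and Acsm5 (-3.37, adjusted p = 5.2e-06, -3.05 floored) encode acyl-CoA synthetases, Mettl7a (-2.80, adjusted p = 9.7e-07) encodes a methyltransferase, and Gnmt, a glycine methyltransferase named after its values were seen, was at least 1.89-fold lower (fitted -5.45, adjusted p = 1.2e-04).

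Of 23 other esterases and hydrolases 2 were lower and 1 higher (median -0.02), a share near the 12.5% of all genes called either way. Cmbl, a hydrolase that activates ester prodrugs in humans, fell by 2.82 (adjusted p = 5.2e-07), Bphl, which hydrolyses amino acid esters, fell by 2.26 (adjusted p = 1.4e-04), and Ppt1, a lysosomal thioesterase, rose by 1.27 (adjusted p = 0.00195). Of 22 efflux and organic ion transporters 1 was lower and none higher, a share below that of all genes (limma, median 0.09, 7 higher and 2 lower at an unadjusted p under 0.05). The lower one was Slc22a4, an organic cation and ergothioneine carrier (-3.58, adjusted p = 3.4e-04, -2.76 floored), while Abcg2 (1.91, adjusted p = 0.01) and Abcb4 (2.24, adjusted p = 0.0168) were not called.

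Among 22 xenobiotic and metabolic transcription factors 1 was higher and 1 lower in fibrotic bronchi (median 0.18), a share below the 12.5% of all genes called either way. Cebpa, a factor of differentiated liver and lung epithelium, had signals of 12.41, 11.78 and 11.01 in fibrotic bronchi, of 12.37, 12.62 and 11.91 in non-fibrotic bronchi and of 8.15 to 10.45 in controls. Both exposed groups lay above every control, by 2.39 in fibrotic (adjusted p = 4.7e-04) and 2.95 in non-fibrotic bronchi (adjusted p = 0.00161), and it was the only gene of the 5 pathway lists called in non-fibrotic bronchi. Ppara, a fatty acid receptor, was at least 2.04-fold lower in fibrotic bronchi (adjusted p = 0.00393), and Nr1h3, an oxysterol receptor, gave 0.79 (adjusted p = 0.179). Between fibrotic and non-fibrotic bronchi the same pathway lists gave 4 genes of methyl, acetyl and amino acid conjugation lower and none higher (1 higher and 4 lower at an unadjusted p under 0.05), and at most 3 calls in any other list. Of all genes 5.3% were called either way in this contrast.

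**Figure D4:**
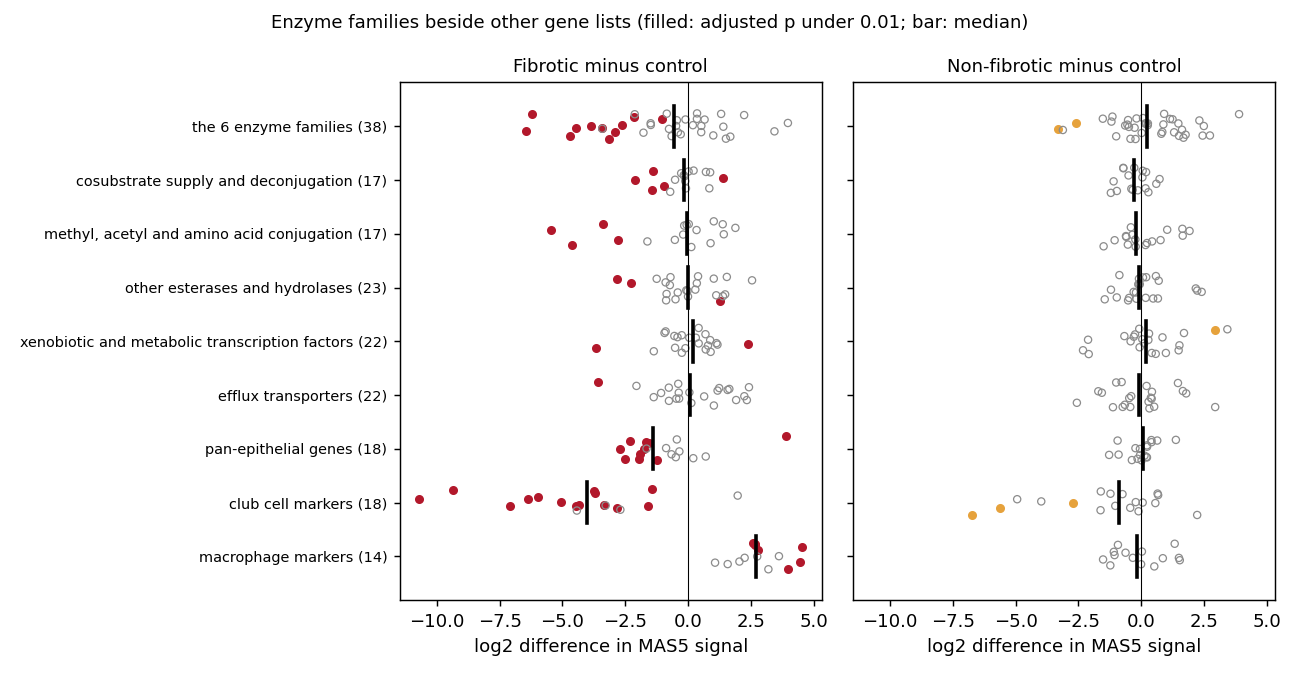
Log2 differences in MAS5 signal from air control bronchi for the 38 enzyme genes, 5 pathway lists and 3 marker lists, 1 point per gene (fibrotic on the left, non-fibrotic on the right). Filled points passed an adjusted p of 0.01 and bars are medians, which were -0.57 for the enzyme genes, -4.04 for club cell markers and 2.72 for macrophage markers in fibrotic bronchi.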

How the data were processed

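Bronchi of 12 specimens were microdissected, and RNA was amplified with the NuGEN WT-Ovation Pico system before hybridization to Affymetrix rat arrays. The authors computed intensity values with MAS5 and deposited 1 linear signal per probe set and array, so amplification, 3′ bias and array scaling are part of them. Detection calls and the error model of the published analysis are not part of the values used here. Of 31099 probe sets 57 Affymetrix controls were left out, and 31042 were tested with no filter. The annotation gave 1 symbol to 20826 and several to 436, which were not assigned to a gene, and the 4 such probe sets of the enzyme families are not counted. Symbols were matched to RefSeq for 37 of the 38 genes (not for Sult1e1), and promoter sequences are from RefSeq (GRCr8).

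Log2 signals were fitted with limma 3.58.1 (lmFit, and eBayes with trend = TRUE; R 4.3.3) in 1 model of the 3 groups taken from the sample labels, with p-values adjusted over all probe sets (Benjamini-Hochberg) and a threshold of 0.01. The script was tested on simulated data. The level of absent transcripts (log2 6.52) is the highest of 36 values of bacterial Trp transcripts that were not added. A fold change against a group whose arrays all lie under it is a lower bound, computed from that level. Values per array are given for every gene called in at least 1 comparison and for gene relatives set beside them. From each pathway list the 3 genes with the smallest p in fibrotic against control bronchi are named. The members and lists were chosen with earlier results of these data known. The number of arrays limits precision. Alternatives changed the threshold, filter on dim probe sets, floor, pseudocount, normalization, variance model, controls used, label form as a block (random block with statmod 1.5.0), probe set choice and each array left out, and the third brightest probe set was added after seeing the data. Figures were drawn with matplotlib 3.10.9.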

Additional observations from a re-analysis of the deposited data

Results flagged for a closer look

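For 7 of the 38 enzyme genes the change from control was not the same in the 2 kinds of PD-exposed bronchi. They were called by the contrast of fibrotic minus non-fibrotic bronchi in limma (adjusted p under 0.01, n = 3 each). All 7 were lower in fibrotic bronchi (18.4%, against 3.83% of all genes called lower and 5.3% either way). The log2 differences were -6.30 for Ces1d, -5.18 for Ugt8, -5.04 for Ephx4, -3.31 for Sult1a1, -3.19 for Ephx1, -3.18 for Pon3 and -3.14 for Pon1. For Ugt8, Ephx4 and Pon1 every fibrotic array lay under the level of absent transcripts, so these 3 are fitted values and the lower bounds are 6.52-fold, 4.07-fold and 1.54-fold. The calls of Ephx4 and Pon1 were lost in 15 of 27 and 13 of 28 alternative analyses. In the same contrast 8 of 18 club cell markers and 16 of 17 ciliated cell markers were lower, 5 of 14 macrophage markers were higher, and the part of cell composition was not tested. Within the 6 controls the gap between the extreme array and its neighbour was taken as a share of the range (Dixon's rule). No single control passed the cutoff for any of the 12 called genes. Control 2 came closest, highest for Pon2 (0.597) and lowest for Ugt8 (0.589). The rule cannot find 2 arrays that stand apart together. For Ephx4 controls 1 and 2 did so, at 4.40 and 4.81 against 7.51 to 8.58 in controls 3 to 6, with a share of 0.0998.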

How the results depend on the processing

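Of 534 values of the 20 called differences under alternative settings 451 kept their direction and call, 80 kept the direction and lost the call, and 3 reversed. Ces1d, Ephx1, Pon3 and Sult1a1 were called lower in fibrotic than in control bronchi under all alternatives run, and so were Ces1d, Ephx1 and Pon3 between fibrotic and non-fibrotic bronchi. Each of these genes has 1 probe set, so the alternatives on probe set choice could not be run for them. The reversals came from the second brightest probe set, for Pon1 in fibrotic (0.80) and non-fibrotic bronchi (2.03) and for Ugt8 in fibrotic bronchi (0.55) against controls, and the control arrays of these probe sets all lay under the level of absent transcripts.

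The count of 11 in fibrotic against control bronchi was 5 with controls 1 and 2 only. The count of 2 in non-fibrotic against control bronchi was 0 with no intensity trend, with controls 1 and 2 only, with label form as a fixed or as a random block and with the second brightest probe set, and 1 with the mean of a gene's probe sets. The count of 7 between fibrotic and non-fibrotic bronchi was 12 at an adjusted p under 0.05 and 4 with only these groups in the fit. The cause was not tested. With each array left out in turn the counts were 9 to 11 (9 without fibrotic replicate 3), 0 to 2 (0 without non-fibrotic replicate 10 or any of control replicates 3, 4, 5 and 6) and 5 to 8. The median log2 difference of all probe sets in fibrotic against control bronchi, 0.10 in the main setting, was -0.01 with the dimmest 40% dropped, 0.12 with a floor at the 20th percentile, 0.17 with median centring and between -0.01 and 0.16 with each array left out.

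No paired analysis was possible because the labels do not tie specimens to rats. The groups compared share fewer than 2 replicate numbers, and these numbers are not stated to name rats. Since non-fibrotic bronchi came from some of the same exposed rats, pairs may exist that could not be matched. Signals under a log2 of 6.52 limit 19 of the 38 genes, and dropping the dimmest 40% of probe sets left 13 of the 38 tested.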

Other observations

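Outside the comparisons above, controls 1 and 2 had lower signals than controls 3 to 6 for Ephx4 (-3.47), Fmo5 (-1.50), Pon1 (-1.43) and Ephx1 (-1.38), and a higher signal for the brightest Fmo2 probe set (1.36), as differences in mean log2 signal of 2 and 4 arrays with no test. The log2 difference between 3′ and 5′ GAPDH control probe sets averaged 1.60 in controls 1 and 2 and 0.78 in controls 3 to 6.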
